A study of Mus musculus with 20 samples.

Results

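The p53 pathway and target genes described here are 39 mouse genes: Trp53 itself, 4 of its regulators, and 34 genes that p53 is known to switch on or that act in the same response. They were found by gene symbol in the deposited count table, and for 12 of them, listed as several transcripts, only the most counted transcript was used. All 39 were present among the 20377 symbols of the table. The libraries came from the bone marrow of male 129S4 mice that were 4 months old and had eaten chow with 300 mg/kg of the androgen oxymetholone, or placebo chow, for 3 months from weaning. KSL cells, the cKit+ Sca1+ Lin- fraction that holds haematopoietic stem and progenitor cells, gave 3 libraries each from Fancd2-/- mice on oxymetholone, wild-type mice on oxymetholone, Fancd2-/- mice on placebo and wild-type mice on placebo, each library from a pool of 5 mice. Erythroblasts, sorted as Ter119+ CD71-high cells of large forward scatter, gave 3 libraries from wild-type mice on oxymetholone and 3 from wild-type mice on placebo, with 1 mouse per library. Whole bone marrow gave 1 pooled library from Fancd2-/- mice and 1 from wild-type mice, both on placebo. The labels name no cell-type-restricted deletion, so the mutation is taken as present in the whole animal. Fancd2-/- erythroblasts were not analysed here.

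p53 is a transcription factor that is kept scarce by the ubiquitin ligase MDM2 and is stabilised when DNA is damaged. It then binds response elements near its target genes, whose products halt the cell cycle, trigger apoptosis, repair DNA or feed back on p53. FANCD2 is monoubiquitinated at DNA crosslinks and stalled replication forks, and its loss is one of the causes of Fanconi anaemia, in which marrow stem cells are lost. p53 activity is mostly set at the level of the protein, so the mRNA of its targets is the usual readout and the mRNA of Trp53 is not.

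The KSL libraries held 10.8 to 121 M counted reads, the erythroblast libraries 17.2 to 20.8 M and the whole marrow libraries 107 M (Fancd2-/-) and 100 M (wild-type). Levels are given as CPM, the usual depth-scaled counts, after TMM scaling over all 20 libraries. Fancd2, the targeted gene, was at 4.69 to 6.16 CPM in the 6 Fancd2-/- KSL libraries and at 12.3 to 16.5 CPM in the 6 wild-type ones, so the genotype labels fitted these levels. Markers fitted the sorted populations: Cd34 was at 795 to 989 CPM in KSL cells on oxymetholone and at no more than 0.282 CPM in erythroblasts on oxymetholone, while Klf1 was at 2682 to 3216 CPM in those erythroblasts. One KSL library, Fancd2-/- placebo 3, stood apart from the other 11 on the first principal component, with a score of 66.9 against -23.5 to 4.5, and its long transcripts were low. Libraries of the same genotype were paired across diets by a shared flow cytometer setting, per the series' design text, and are numbered here by pair. The column of Fancd2-/- placebo 1 carries a name 1 character longer than its sample label, as does the design text, and was matched to the only Fancd2-/- placebo KSL sample left without a column, so its values rest on that reading. p-values among KSL libraries measure the spread between these pools, which may be partly technical. In these bulk libraries, fewer cells of a type and less RNA per cell cannot be told apart.

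Letters matching the p53 response element were searched for in the mm9 genome within 2500 bases on each side of every transcript start. The element is 20 bases long, a pair of adjacent half-sites that each have the core CNNG, with A or T in place of each N, flanked by purines before and pyrimidines after. A match had both cores intact and at most 2 mismatches in the flanks. As the half-site is its own reverse complement, a match on one strand is a match on both. The 4 matches at genes that were higher in Fancd2-/- KSL cells are printed 5′ to 3′ on the gene's strand, with the cores in capitals.
Zmat3, chr3:32263253-32263272 (- strand, 1315 bases downstream of the start, 0 mismatches): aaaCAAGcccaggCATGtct
Gtse1, chr15:85690375-85690394 (+ strand, 239 bases downstream, 1 mismatch): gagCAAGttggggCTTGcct
Ckap2, chr8:23296475-23296494 (- strand, 203 bases upstream, 2 mismatches): agaCATGtcctgaCTTGtca
Perp, chr10:18562840-18562859 (+ strand, 2036 bases upstream, 2 mismatches): attCTAGcccaggCTTGccc

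Such a match was found at 8 of the 39 genes (20.5%) and at 594 of all 20325 genes with a window (2.92%). The 39 genes were listed as p53 targets, many of them because of such elements, so this difference is not independent of how they were chosen. Of the 6 genes called by genotype below, 4 had a match, and of the 33 others 4 did, namely Ccng1, Fas, Plk2 and Pmaip1. No match in these letters was found in the windows of Eda2r and Phlda3, which differed the most by genotype, nor of Cdkn1a. Each window surrounded the start of 1 transcript per gene, so sites near other starts could be missed. In the RefSeq promoters of the build GRCm38.p6, 300 bases long, a single half-site of 10 bases without mismatch was found in 8.36% of 32851 promoters. There, 31 of the 39 symbols had an entry, with 44 promoters, of which 14 had a half-site. Counted by symbol, which is not comparable with that share, 13 had a half-site in at least 1 promoter. Cdkn1a, Mdm2, Trp53, Ckap2 and Gtse1 were among them. One Cdkn1a promoter (chr17:29090729-29091028) held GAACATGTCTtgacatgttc, which has both cores intact and 1 mismatch. It meets the rule for a full match, so the lack of a match at Cdkn1a applies to its window alone. These are matches of letters and not measured binding.

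In KSL cells, 6 of the 39 genes were higher in Fancd2-/- than in wild-type cells when both diets were averaged, and none was lower. Eda2r, a receptor of the TNF receptor family, rose 3.30-fold, Phlda3, which restrains the survival kinase AKT, 2.98-fold, and Zmat3, an RNA-binding growth suppressor, 1.86-fold. Gtse1 and Ckap2, whose products bind microtubules in dividing cells, rose 1.58-fold and 1.43-fold, and Perp, an apoptosis effector and component of desmosomes, rose 1.41-fold. The genes at the centre of the pathway, Trp53, Mdm2 and Cdkn1a, were not among them. The libraries of a pair shared a cytometer setting and entered this fit as independent; with an estimated pair correlation 4 of the 39 were called, and with the libraries of each pair summed 1 was, Eda2r. The call, at an adjusted p under 0.05 in edgeR's quasi-likelihood test over 13259 genes, was made for 492 genes in all (3.71%), of which 198 were higher (1.49%) and 294 lower (2.22%). Over the 39 genes, all of which passed the low-count filter, the median log2 fold change was 0.07 with 24 above 0, against -0.01 over all genes tested. Of all genes tested, 49.1% were above 0.

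Within each diet fewer genes passed. On placebo, 2 of the 39 genes were called, Ckap2 and Eda2r, both higher, where 170 of all genes were (1.28%, with 0.505% higher and 0.777% lower). On oxymetholone, edgeR called 0 of the 39, where 17 of all genes were called (0.128%, with 0.0302% higher and 0.098% lower). Of the 39, 6 had an unadjusted p under 0.05 there, as did 5.57% of all genes, and DESeq2 called 2. The median log2 genotype difference was 0.10 on oxymetholone, with 29 of 39 above 0, and 0.06 on placebo, with 23 of 39 above 0, against 0.01 and -0.01 over all genes. Of all genes tested, 51.6% were above 0 on oxymetholone and 48.4% on placebo. Whether the genotype difference differed between diets was tested as an interaction, and edgeR called 0 of the 13259 genes (0.0%; 457, or 3.45%, had an unadjusted p under 0.05, 2 of them among the 39, and DESeq2 called 1). The plot of genotype differences by role shows both diets side by side.

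**Figure D1:**
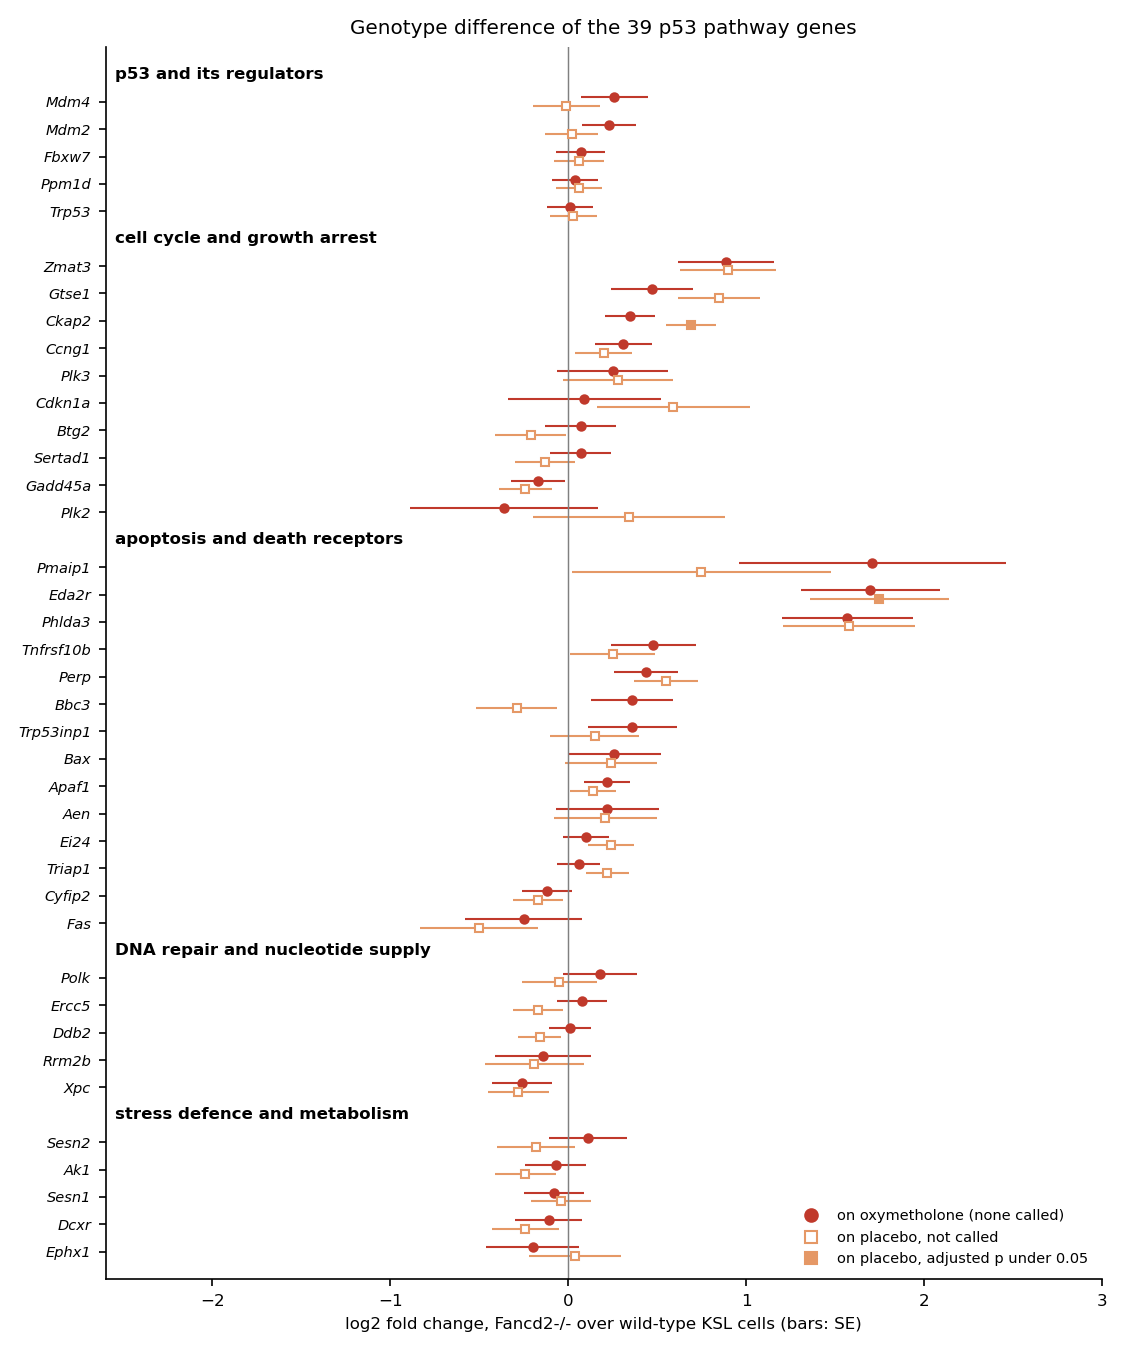
Log2 fold change of Fancd2-/- over wild-type KSL cells (x axis, with SE) for the 39 genes, grouped by role, on oxymetholone (circles) and on placebo (squares, filled where called). Eda2r (1.70 and 1.75), Phlda3 (1.57 and 1.58) and Zmat3 (0.89 and 0.90) lie to the right on both diets, while Trp53 and most repair genes lie near 0.

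The first role is p53 and its regulators, and none of the 5 was called in any genotype comparison. Trp53 (NM_001127233, chr11:69393860-69405375) was at 282, 244 and 322 CPM in Fancd2-/- cells on oxymetholone, against 262, 305 and 281 CPM in wild-type cells on oxymetholone. It was at 233, 304 and 285 CPM in Fancd2-/- cells on placebo, against 290, 295 and 239 CPM in wild-type cells on placebo. The groups overlapped on both diets, and the averaged log2 difference was 0.02 ± 0.10 (SE, adjusted p = 0.928).

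Mdm2 (chr10:117125960-117147772), the p53 ubiquitin ligase and itself a p53 target, was at 81.7, 86.8 and 68.0 CPM in Fancd2-/- and 69.0, 67.8 and 65.9 CPM in wild-type cells on oxymetholone. On placebo it was at 87.6, 79.2 and 57.0 CPM in Fancd2-/- and 73.7, 71.6 and 80.6 CPM in wild-type cells. The libraries of the genotypes overlapped, and the averaged difference was 0.12 ± 0.10 (adjusted p = 0.524). Mdm4, a relative of MDM2 that masks the activation domain of p53, differed by 0.13 ± 0.13, Ppm1d, the phosphatase that reverses damage signalling, by 0.05 ± 0.09, and Fbxw7, a substrate receptor of a ubiquitin ligase, by 0.07 ± 0.10 (log2, averaged over diets).

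Of the 10 genes of cell cycle and growth arrest, 3 were called on the average of both diets, all higher in Fancd2-/- cells. Cdkn1a (NM_007669, chr17:29230716-29237667) encodes p21, the cyclin-dependent kinase inhibitor through which p53 halts the cycle. It was at 63.3, 73.5 and 111 CPM in Fancd2-/- and 141, 49.0 and 45.1 CPM in wild-type cells on oxymetholone. On placebo the level was at 40.0, 79.9 and 99.0 CPM in Fancd2-/- and 63.7, 34.5 and 51.3 CPM in wild-type cells. Its spread within groups was wide, the highest of all 12 values was a wild-type library, and the averaged log2 difference of 0.34 ± 0.31 did not pass (adjusted p = 0.546).

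Zmat3 (NM_009517, chr3:32233715-32264587), which carries the full match printed above, was at 8.04, 7.90 and 12.1 CPM in Fancd2-/- and 5.27, 5.56 and 4.33 CPM in wild-type cells on oxymetholone. The placebo values were 7.99, 6.55 and 14.1 CPM in Fancd2-/- and 6.0, 5.08 and 4.78 CPM in wild-type cells. All 6 Fancd2-/- libraries lay above all 6 wild-type ones, and pair 3 of the Fancd2-/- libraries was the highest on both diets. The log2 difference was 0.89 ± 0.27 on oxymetholone (adjusted p = 0.467), 0.90 ± 0.27 on placebo (adjusted p = 0.109) and 0.90 ± 0.19 averaged (adjusted p = 0.0244). Without both libraries of Fancd2-/- pair 3 it was 0.57 ± 0.13 (adjusted p = 0.012).

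Ckap2 (NM_001004140, chr8:23278623-23296291) was at 55.3, 60.6 and 43.7 CPM in Fancd2-/- and 40.4, 42.7 and 42.9 CPM in wild-type cells on oxymetholone. On placebo it was at 56.3, 65.6 and 51.6 CPM in Fancd2-/- and 32.1, 39.3 and 38.4 CPM in wild-type cells. Its groups did not overlap on either diet, with the smallest gap, 43.7 against 42.9 CPM, on oxymetholone. The log2 difference was 0.35 ± 0.14 on oxymetholone (adjusted p = 0.791), 0.69 ± 0.14 on placebo (adjusted p = 0.0378) and 0.52 ± 0.10 averaged (adjusted p = 0.0159).

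Gtse1 (NM_001168672, chr15:85690136-85707003), whose product also binds p53 and moves it out of the nucleus, was at 11.6, 14.2 and 19.1 CPM in Fancd2-/- and 9.88, 12.4 and 10.3 CPM in wild-type cells on oxymetholone. On the placebo diet it was at 10.2, 19.5 and 17.3 CPM in Fancd2-/- and 7.78, 10.1 and 8.85 CPM in wild-type cells. The groups overlapped on oxymetholone and did not on placebo, where the closest values were 10.2 and 10.1 CPM. Its log2 difference was 0.47 ± 0.23 on oxymetholone (adjusted p = 0.923), 0.85 ± 0.23 on placebo (adjusted p = 0.083) and 0.66 ± 0.16 averaged (adjusted p = 0.0424).

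Ccng1, a cyclin induced by p53, was at 89.6, 115 and 77.0 CPM in Fancd2-/- and 85.2, 71.1 and 72.2 CPM in wild-type cells on oxymetholone, and at 94.2, 85.9 and 81.3 CPM in Fancd2-/- and 73.3, 70.8 and 88.3 CPM in wild-type cells on placebo. The groups overlapped on both diets, and it was not called (0.26 ± 0.11 averaged, adjusted p = 0.2). Gadd45a, a stress sensor that slows the cycle and aids repair, was at 15.2, 15.5 and 13.3 CPM in Fancd2-/- and 17.4, 16.8 and 15.5 CPM in wild-type cells on oxymetholone. On placebo the level was at 17, 16.2 and 12.4 CPM in Fancd2-/- and 17.7, 17.3 and 20.3 CPM in wild-type cells. Within each diet the Fancd2-/- values were the lower ones without overlap, but the difference was small and not called (-0.21 ± 0.10 averaged, adjusted p = 0.263). The other 4 genes of this role, the antiproliferative gene Btg2, the polo-like kinases Plk2 and Plk3, and Sertad1, were not called either, with averaged differences of -0.07, -0.01, 0.26 and -0.03.

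**Figure D2:**
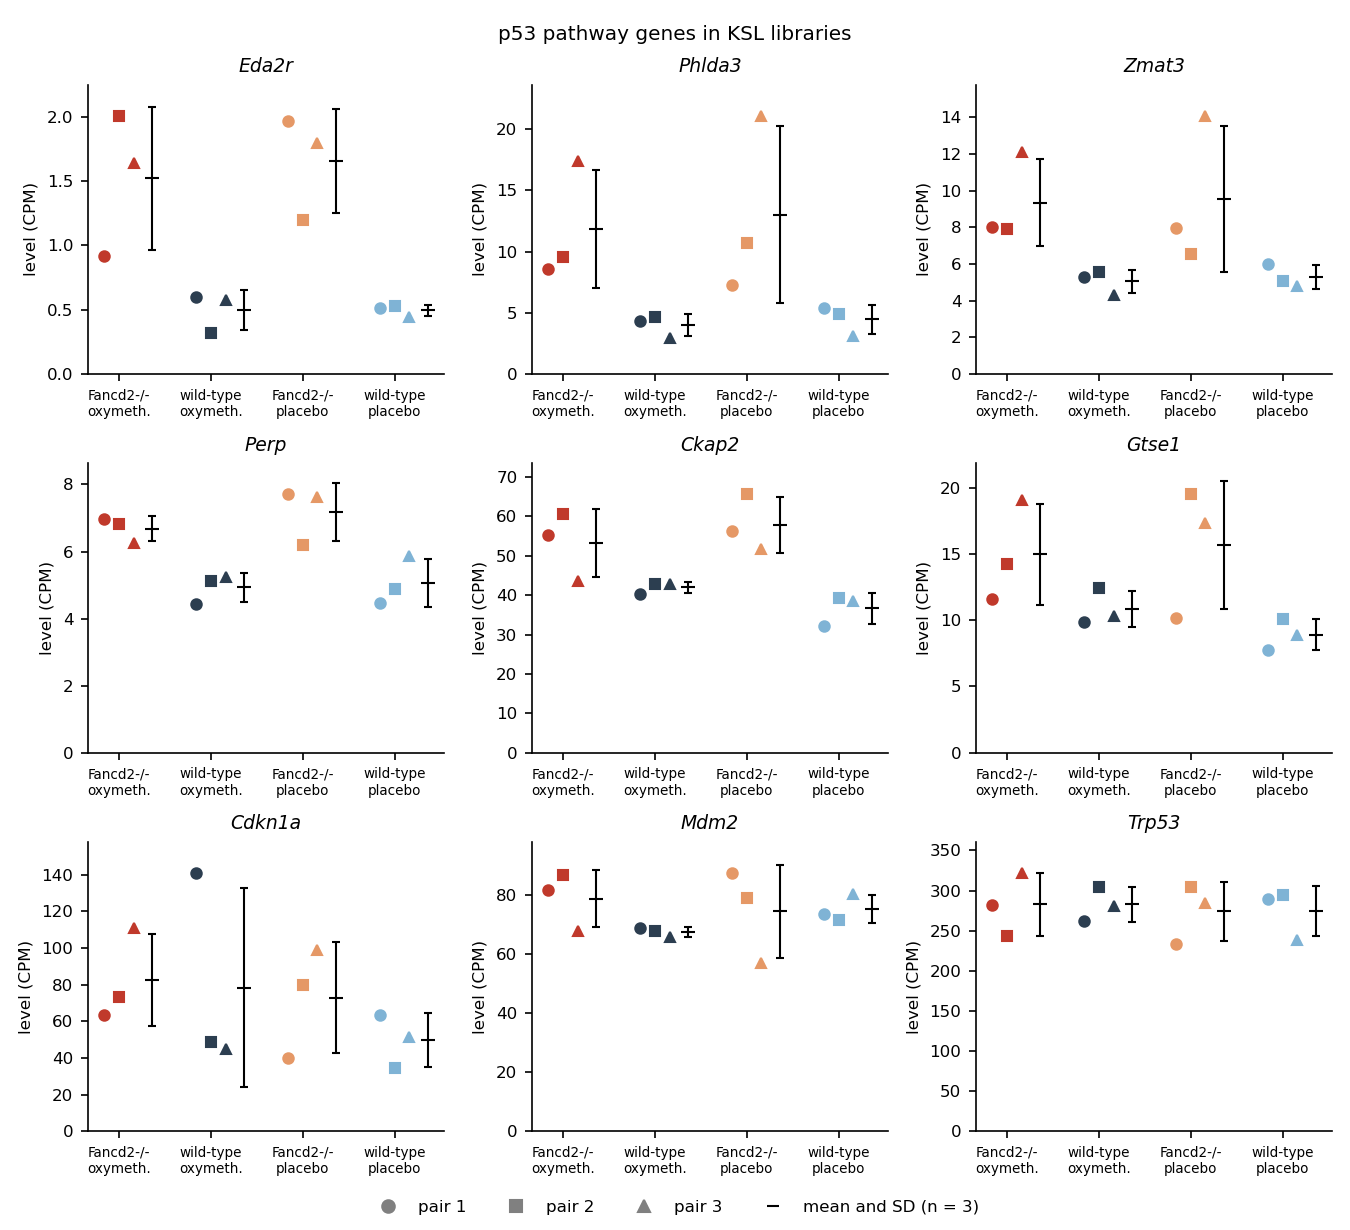
Level in CPM (y axes, from 0) of the 6 called genes and of Cdkn1a, Mdm2 and Trp53 in each of the 12 KSL libraries, by group; marker shapes give the pair and bars the mean and SD of 3 libraries. For Eda2r, Phlda3, Zmat3, Perp and Ckap2 every Fancd2-/- library lies above every wild-type one, while Cdkn1a, Mdm2 and Trp53 overlap.

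Among the 14 genes of apoptosis and death receptors, 12 had an averaged difference above 0, as did 49.1% of all genes tested. Of the 14, 3 were called, all higher in Fancd2-/- cells. Eda2r (NM_001161432, chrX:94529179-94572548) was at 0.915, 2.01 and 1.64 CPM in Fancd2-/- and 0.598, 0.319 and 0.577 CPM in wild-type cells on oxymetholone. On the placebo diet it was at 1.97, 1.2 and 1.80 CPM in Fancd2-/- and 0.512, 0.527 and 0.446 CPM in wild-type cells. No library of one genotype overlapped the other, although the gene was scarce, with 19 to 249 reads in a Fancd2-/- library and 7 to 88 in a wild-type one. The log2 difference was 1.70 ± 0.39 on oxymetholone (adjusted p = 0.187), 1.75 ± 0.39 on placebo (adjusted p = 0.0449) and 1.72 ± 0.27 averaged (adjusted p = 0.00463).

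Phlda3 (NM_013750, chr1:137662661-137665711) was at 8.57, 9.56 and 17.4 CPM in Fancd2-/- and 4.34, 4.67 and 2.94 CPM in wild-type cells on oxymetholone. On placebo it was at 7.23, 10.7 and 21.1 CPM in Fancd2-/- and 5.37, 4.87 and 3.12 CPM in wild-type cells. The genotypes did not overlap, and as for Zmat3 pair 3 of the Fancd2-/- libraries was the highest on each diet. Its log2 difference was 1.57 ± 0.37 on oxymetholone (adjusted p = 0.203), 1.58 ± 0.37 on placebo (adjusted p = 0.0557) and 1.57 ± 0.26 averaged (adjusted p = 0.00628), and 1.10 ± 0.17 averaged without both libraries of that pair (adjusted p = 0.0014).

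Perp (NM_022032, chr10:18564876-18576878) was at 6.98, 6.82 and 6.26 CPM in Fancd2-/- and 4.43, 5.12 and 5.24 CPM in wild-type cells on oxymetholone. On the placebo diet it was at 7.71, 6.19 and 7.64 CPM in Fancd2-/- and 4.46, 4.87 and 5.86 CPM in wild-type cells. The genotypes did not overlap on either diet. The log2 difference was 0.44 ± 0.18 on oxymetholone (adjusted p = 0.785), 0.55 ± 0.18 on placebo (adjusted p = 0.136) and 0.50 ± 0.13 averaged (adjusted p = 0.0495).

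The direct executioners of p53-driven apoptosis were not called. Bax, which opens the mitochondrial outer membrane, was at 30.3, 44.4 and 67.2 CPM in Fancd2-/- and 35.5, 50.9 and 32.6 CPM in wild-type cells on oxymetholone, with overlap (0.26 ± 0.26). Bbc3, which encodes PUMA, an inhibitor of the BCL2 survival proteins, was at 22.0, 17.7 and 25.8 CPM in Fancd2-/- and 13.9, 23.9 and 13 CPM in wild-type cells on oxymetholone, and at 15.5, 18.8 and 12.7 CPM in Fancd2-/- and 18.1, 24.0 and 16.4 CPM in wild-type cells on placebo. Its log2 difference was 0.36 ± 0.23 on oxymetholone and -0.29 ± 0.23 on placebo, and its groups overlapped on both. Pmaip1, which encodes NOXA, a protein of the same class as PUMA, was at 0.385, 0.903 and 0.859 CPM in Fancd2-/- and 0.133, 0.0876 and 0.626 CPM in wild-type cells on oxymetholone, and at 0.201, 0.276 and 0.674 CPM in Fancd2-/- and 0.184, 0.366 and 0.0637 CPM in wild-type cells on placebo. The groups overlapped, the gene had 1 to 130 reads a library, and the averaged estimate of 1.23 ± 0.53 did not pass (adjusted p = 0.197).

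The remaining genes of this role stayed below the threshold. The death receptor Tnfrsf10b differed by 0.36 ± 0.17 (averaged log2), the death receptor Fas by -0.38, and Apaf1, the scaffold of the apoptosome, by 0.18 ± 0.09. Ei24, a membrane protein induced by p53, was at 83.7, 74.7 and 89.4 CPM in Fancd2-/- and 80.3, 64.2 and 70.9 CPM in wild-type cells on placebo (0.24 ± 0.13, adjusted p = 0.323). Triap1, which curbs apoptosis, was at 46.2, 45.7 and 50.4 CPM in Fancd2-/- and 45.9, 41.2 and 38.7 CPM in wild-type cells on placebo (0.22 ± 0.12, adjusted p = 0.317). The nuclease gene Aen, Trp53inp1, which promotes p53 phosphorylation, and Cyfip2, an actin regulator, were not called.

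None of the 5 genes of DNA repair and nucleotide supply was called. On placebo all 5 had estimates below 0 (median -0.17 on the log2 scale), while on oxymetholone 3 of the 5 lay above 0 (median 0.01). Over all genes, 48.4% were above 0 on placebo and 51.6% on oxymetholone. Log2 ratios of oxymetholone over placebo were 0.67 (Xpc), 0.7 (Polk), 0.44 (Ercc5), 0.43 (Rrm2b) and 0.2 (Ddb2) in Fancd2-/- pair 3. That pair holds the outlying library, Fancd2-/- placebo 3. In the same order they were -0.32, -0.38, -0.07, -0.26 and -0.03 in pair 1. In pair 2 they were -0.22, 0.09, 0.07, 0.46 and -0.05. The part of that library in the contrast was not tested. Xpc, which recognises distorted DNA in nucleotide excision repair, was at 97.9, 122 and 137 CPM in Fancd2-/- and 125, 161 and 142 CPM in wild-type cells on oxymetholone. On placebo it was at 122, 141 and 86.0 CPM in Fancd2-/- and 130, 150 and 153 CPM in wild-type cells. The groups overlapped on both diets and the averaged difference was -0.27 ± 0.12 (adjusted p = 0.213). Its partner genes Ddb2 and Ercc5, the translesion polymerase gene Polk and the ribonucleotide reductase subunit Rrm2b were not called either. The same held for the 5 genes of stress defence and metabolism (Sesn1, Sesn2, Dcxr, Ak1 and Ephx1), whose averaged differences ran from -0.17 to -0.03.

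Counted without a model, all 6 Fancd2-/- libraries lay above all 6 wild-type ones for 5 of the 39 genes (Eda2r, Phlda3, Zmat3, Perp and Ckap2), where 1.33% of all genes tested did, and below them for 0 of the 39 (2.18% of all genes). Within a diet, such separation was seen upward in 8 genes on oxymetholone (5.02% of all genes) and 6 on placebo (9.31%). Downward it was seen in Gadd45a and Ephx1 on oxymetholone (6.96%) and in Gadd45a on placebo (15.3%). The 39 genes were chosen with earlier results of these data known, so these counts are not independent of them.

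The calls differed in how they held. Eda2r kept its averaged call under all 22 alternatives tried, at log2 values of 1.54 to 1.84. Phlda3 and Ckap2 kept theirs with any 1 library left out and, among those alternatives, lost it only when the libraries of each pair were summed (adjusted p = 0.0775 and 0.183). Zmat3 lost its call without wild-type oxymetholone 2 or 3 (0.94 and 0.87, adjusted p = 0.0582 and 0.0733) and without wild-type placebo 2 or 3 (0.89 each, adjusted p = 0.0703 and 0.0578), and with pairs summed (0.86, adjusted p = 0.148). Among libraries left out, Perp kept its call only without Fancd2-/- oxymetholone 3 or Fancd2-/- placebo 2, and lost it without any of the other 10 libraries (0.46 to 0.57, adjusted p = 0.0506 to 0.121). Perp also lost it with pairs summed (0.47, adjusted p = 0.261) and under 4 other settings (adjusted p = 0.0564 to 0.0971). Gtse1 kept its call without Fancd2-/- oxymetholone 1 or 3 or Fancd2-/- placebo 1, and lost it without any of the other 9 (0.59 to 0.72, adjusted p = 0.0614 to 0.107), with pairs summed (0.67, adjusted p = 0.2) and with limma voom (0.67, adjusted p = 0.0789). The 2 placebo calls were lost without wild-type placebo 1, 2 or 3 (Ckap2 0.61, 0.75 and 0.76; Eda2r 1.78, 1.81 and 1.74) or Fancd2-/- placebo 2 (0.63 and 1.98), and that of Eda2r also without Fancd2-/- placebo 1 or 3 (1.64 and 1.66).

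Other features of these libraries moved with genotype. The summed level of 25 mitosis genes was 2300 to 2566 CPM in Fancd2-/- and 2065 to 2141 CPM in wild-type cells on oxymetholone, and 2248 to 2862 CPM in Fancd2-/- and 1460 to 1884 CPM in wild-type cells on placebo. Of these 25 genes 16 were called higher on the average of both diets (1.49% of all genes), with a median log2 difference of 0.47. On placebo 13 of the 25 were called higher (0.505% of all genes, median of the 25 0.73). On oxymetholone 0 were called (0.0302% of all genes called higher, median of the 25 0.24). As the mitosis list was chosen with earlier results of these data known, these calls are not independent of them. Gtse1 and Ckap2, which are expressed in dividing cells, were also higher on the average. The 6 KSL markers summed to 1754 to 2266 CPM in the Fancd2-/- libraries and 2387 to 2561 CPM in the wild-type ones, and the 8 megakaryocyte markers to 261 to 425 CPM and 510 to 645 CPM, with none of either list at 0 counts. The KSL markers did not move as 1 group: Kit (-0.49 ± 0.13, adjusted p = 0.0476) was lower in Fancd2-/- cells, while Slamf1 was higher, at 13.8 to 24.4 CPM in Fancd2-/- and 8.66 to 12.4 CPM in wild-type cells (0.79 ± 0.12, adjusted p = 0.00391). The 12 fibroblast and stromal markers summed to 254 CPM in Fancd2-/- placebo 3, against 102 to 138 CPM in the other KSL libraries. The part of these differences in the results on the p53 genes was not tested.

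Other genes of the pathway were followed as 2 lists. Among 34 tested p53 targets outside the 39, 5 were higher in Fancd2-/- KSL cells on the average of both diets and 0 lower. Over all genes tested, 1.49% were called higher and 2.22% lower. The list was chosen with earlier results of these data known, so these calls are not independent of them. With the libraries of each pair summed, averaged calls over all genes fell from 492 to 52. The 5 genes were not followed in that fit. Gdf15, a secreted stress cytokine, was at 1.59, 2.10 and 3.65 CPM in Fancd2-/- and 0.731, 0.526 and 0.722 CPM in wild-type cells on oxymetholone, and at 1.37, 2.16 and 2.32 CPM in Fancd2-/- and 0.758, 0.659 and 0.701 CPM in wild-type cells on placebo. These values did not overlap between genotypes, and the difference was 1.73 ± 0.25 (log2, adjusted p = 0.00262). Zfp365, a zinc finger gene, rose by 1.05 (adjusted p = 0.0181), Sulf2, which encodes a sulfatase that edits heparan sulfate, by 0.80 (adjusted p = 0.0205), Rps27l, a relative of a ribosomal protein gene, by 0.54 (adjusted p = 0.0288) and Psrc1, a spindle-associated gene, by 0.45 (adjusted p = 0.0409). Psrc1 falls outside the number of genes set for naming and was added after its value was seen, and the counts of Rps27l may include reads of its close relatives. The list ran from -0.99 to 1.73 with a median of 0.04, and 18 of the 34 genes were above 0, as were 49.1% of all genes. Of 20 tested damage kinases and other p53 regulators, 0 were called by edgeR on the average, where 5 had an unadjusted p under 0.05, as did 2786 of all 13259 genes. The smallest p values were those of Trp53bp2 (-0.33, adjusted p = 0.0921) and Crebbp (-0.34, adjusted p = 0.158).

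Oxymetholone did not give a call for any of the 39 genes in KSL cells of either genotype. With pairs as blocks, edgeR called 0 of 13259 genes in Fancd2-/- cells (0.0%; 903, or 6.81%, had an unadjusted p under 0.05, and DESeq2 called 0) and 0 in wild-type cells (0.0%; 357, or 2.69%, and DESeq2 called 4). Of the 39 genes, 3 had an unadjusted p under 0.05 in Fancd2-/- cells and 1 in wild-type cells. The median log2 change over the 39 was 0.03 in Fancd2-/- cells and -0.04 in wild-type cells, against -0.01 in Fancd2-/- and -0.00 in wild-type cells over all genes.

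Taken pair by pair, the 3 Fancd2-/- pairs had median log2 ratios of oxymetholone over placebo of -0.06, -0.02 and 0.16 over the 39 genes, with 15, 19 and 23 genes above 0. The 3 wild-type pairs had medians of -0.11, -0.02 and -0.11, with 13, 18 and 12 genes above 0. In Fancd2-/- cells 3 genes were above 0 in all pairs (Mdm4, Pmaip1 and Sesn2) and 5 in none (Sesn1, Plk3, Ckap2, Triap1 and Ephx1). In wild-type cells 3 were above 0 in all pairs (Gtse1, Ckap2 and Cyfip2) and 14 in none, Mdm2, Bbc3, Bax and Ephx1 among them. The genes named here rest on signs alone, many of them of changes close to 0.

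Bbc3 had ratios of 0.51, -0.09 and 1.02 in the Fancd2-/- pairs and -0.38, -0.01 and -0.33 in the wild-type pairs. The ratio of 1.02 was from the pair that holds the outlying Fancd2-/- placebo 3. The estimate for Bbc3 was 0.47 ± 0.18 in Fancd2-/- and -0.21 ± 0.17 in wild-type cells, and the interaction of 0.69 ± 0.25 did not pass (adjusted p = 0.953). Cdkn1a had ratios of 0.66, -0.12 and 0.17 in the Fancd2-/- pairs and 1.15, 0.51 and -0.19 in the wild-type pairs, and so was above 0 in 2 of 3 pairs of each genotype without passing the test (0.22 ± 0.21, adjusted p = 0.751, and 0.52 ± 0.22, adjusted p = 0.999). Mdm2 stayed within -0.10 to 0.25 in the Fancd2-/- and -0.29 to -0.08 in the wild-type pairs, and Trp53 within -0.32 to 0.28 and -0.15 to 0.23.

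Ephx1, an epoxide hydrolase of detoxification, was the only gene of the 39 besides Plk3 and Triap1 with a lower value on oxymetholone in all 6 pairs. It was at 6.07, 5.97 and 4.82 CPM on oxymetholone and 6.99, 6.42 and 13.4 CPM on placebo in Fancd2-/- cells. Wild-type cells had 6.49, 6.48 and 6.45 CPM of it on oxymetholone and 11.0, 8.07 and 7.96 CPM on placebo. The wild-type diets did not overlap, nor did those of the Fancd2-/- cells, but neither change was called (-0.64 ± 0.26, adjusted p = 0.688, in Fancd2-/- and -0.45 ± 0.25, adjusted p = 0.999, in wild-type cells). The log2 ratios of Ephx1 in the Fancd2-/- pairs were -0.2, -0.1 and -1.48, the last from the pair with the outlying Fancd2-/- placebo 3. Mdm4 had ratios of 0.17, 0.27 and 0.98 in the Fancd2-/- pairs (0.47 ± 0.20, adjusted p = 0.688), with the largest in the pair that holds Fancd2-/- placebo 3.

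The next genes by p in Fancd2-/- cells did not pass the test either. Triap1 was at 39.1, 43.4 and 39.6 CPM on oxymetholone and 46.2, 45.7 and 50.4 CPM on placebo, without overlap (-0.23 ± 0.12). Btg2 was at 22.7, 21.9 and 28.0 CPM on oxymetholone and 20.6, 23.9 and 14.0 CPM on placebo, with overlap (0.33 ± 0.19). Its lowest value, 14.0 CPM, was in the outlying Fancd2-/- placebo 3. Sesn2 (0.33 ± 0.20), Ei24 (-0.19 ± 0.13) and Pmaip1 (0.93 ± 0.69) followed, all with an adjusted p of at least 0.688. In wild-type cells Gtse1 was at 9.88, 12.4 and 10.3 CPM on oxymetholone and 7.78, 10.1 and 8.85 CPM on placebo (0.31 ± 0.15), and Ckap2 at 40.4, 42.7 and 42.9 CPM on oxymetholone and 32.1, 39.3 and 38.4 CPM on placebo, in the case of Ckap2 without overlap (0.22 ± 0.12). The 25 mitosis genes were above 0 in the same wild-type comparison, as were 48.8% of all genes. All 25 were uncalled, with a median of 0.34, and their part in these values was not tested. Ak1 (-0.35 ± 0.18), Dcxr, a carbonyl reductase (-0.23 ± 0.17), and Ddb2 (-0.14 ± 0.11) came next (adjusted p = 0.999 each). The genotype by diet interaction was -0.36 ± 0.16 for Ckap2 and -0.36 ± 0.21 for Gtse1 (adjusted p = 0.953 each).

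**Figure D3:**
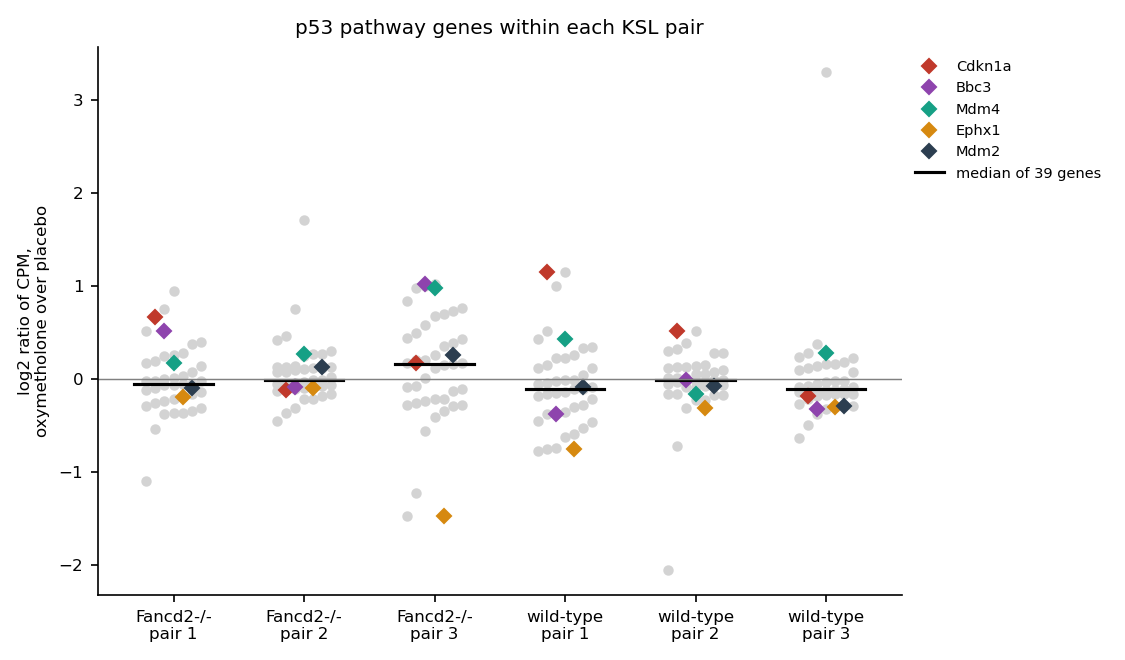
Log2 ratio of CPM on oxymetholone over placebo (y axis) for the 39 genes (grey points) in each of the 3 Fancd2-/- and 3 wild-type KSL pairs, with the median as a line and 5 genes in colour. The medians lie between -0.11 and 0.16, and no coloured gene except Ephx1 keeps its sign in all 6 pairs.

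Erythroblasts differed from KSL cells in nearly all of these genes, as in nearly all genes. On placebo, 18 of the 38 tested were higher in wild-type erythroblasts than in wild-type KSL cells and 17 lower, where 91.0% of 12538 genes were called (37.2% higher, 53.7% lower). The median log2 ratio of the 38 was 0.10 against -0.67 over all genes. With median-of-ratios size factors these medians were 0.25 and -0.51, so both moved together. On oxymetholone, 18 of 37 were higher and 17 lower (91.5% of 12518 genes called, 37.5% higher and 53.9% lower), with a median of -0.02 against -0.65 over all genes.

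Highest among the called genes relative to KSL cells were Btg2, Gtse1, Gadd45a and Phlda3. Btg2, an antiproliferative gene, was at 2194, 1717 and 1448 CPM in erythroblasts and 23.8, 24.5 and 20.7 CPM in KSL cells on placebo (6.33 ± 0.18). Gtse1 was at 298, 311 and 357 CPM in erythroblasts (5.22 ± 0.14), Gadd45a at 366, 340 and 380 CPM (4.37 ± 0.11) and Phlda3 at 60.1, 70.4 and 61.5 CPM (3.84 ± 0.18). All 4 lay far above the KSL values given above. Gtse1 moved with the 25 mitosis genes, all of which were higher in erythroblasts (median 3.83).

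The lowest were Perp, Xpc, Ak1 and Fas. Perp had 0 counts in all 6 erythroblast libraries, so that against a limit of 3 counts over the 3 placebo libraries it was at least 52.6-fold lower in erythroblasts than in KSL cells on placebo, and at least 53.7-fold lower on oxymetholone. Xpc was at 1.30, 1.16 and 1.59 CPM in erythroblasts and 130, 150 and 153 CPM in KSL cells on placebo (-6.68 ± 0.17). Ak1, adenylate kinase, was at 0, 0.622 and 0.281 CPM in erythroblasts and 21.0, 18.3 and 15.4 CPM in KSL cells on placebo, and Fas, with 1 read in the placebo libraries together, at no more than 0.108 CPM against 1.02 to 1.60 CPM. None of these values overlapped between the populations.

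The core of the pathway moved in opposite directions between the populations. Trp53 was at 86.5, 85.8 and 83.6 CPM in erythroblasts on placebo and fell by 1.63 on the log2 scale relative to KSL cells (SE 0.11), while Mdm2 was at 165, 173 and 165 CPM and rose by 1.22 (SE 0.10). Mdm4 (3.50 ± 0.15), Ppm1d (3.32 ± 0.11) and Fbxw7 (1.46 ± 0.11) were higher in erythroblasts as well, so that 4 of the 5 genes of this role were higher and Trp53 alone was lower. Cdkn1a did not differ by the test, at 72.9, 49.1 and 56.0 CPM in erythroblasts (0.32 ± 0.23, adjusted p = 0.206). Of the genes called by genotype in KSL cells, Phlda3, Gtse1 and Ckap2 were higher in erythroblasts, Zmat3 and Perp lower, and Eda2r did not pass (-1.11 ± 0.55, adjusted p = 0.0693, 1 to 3 reads in each placebo erythroblast library).

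Set per kilobase of transcript, which allows levels to be compared between genes, Trp53 was the most abundant of the 39 in wild-type KSL cells on placebo at 155 CPM per kb, followed by Sesn1 (53.5), Bax (48.6) and Cyfip2 (47.9). The 4 scarcest there were Pmaip1 (0.0773), Eda2r (0.104), Zmat3 (0.678) and Fas (0.873). In wild-type erythroblasts on placebo Btg2 led at 651 CPM per kb, followed by Gadd45a (296), Gtse1 and Ppm1d (118 each) and Ckap2 (109), with Trp53 at 48.1. Of the 6 genes called by genotype, Eda2r and Zmat3 were among the 4 scarcest in KSL cells.

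**Figure D4:**
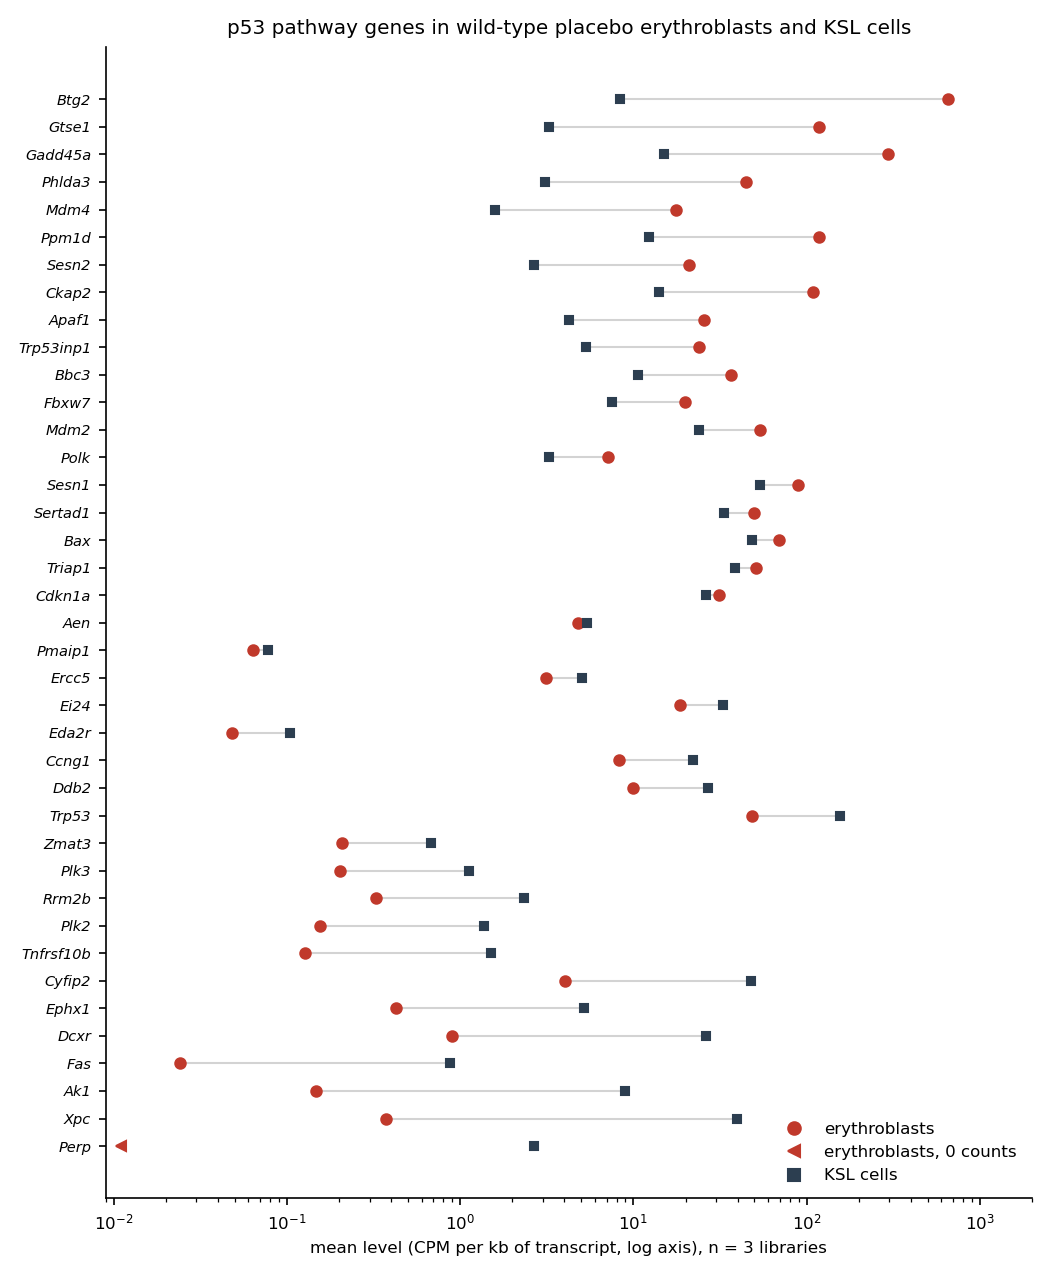
Mean level per kilobase of transcript (CPM per kb, log x axis, n = 3 libraries) of the 39 genes in wild-type erythroblasts (circles) and wild-type KSL cells (squares) on placebo, ordered by their ratio. Btg2 stands at the top, 651 against 8.38 CPM per kb, and Perp, with 0 counts in erythroblasts, at the bottom.

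Within wild-type erythroblasts, oxymetholone changed none of the genes by the test. edgeR called 0 of the 30 that passed the filter and 0 of 9694 genes in all (0.0%; 123, or 1.27%, had an unadjusted p under 0.05, none of them among the 30, and DESeq2 called 0). Gadd45a was at 389, 401 and 385 CPM on oxymetholone and 366, 340 and 380 CPM on placebo, so that the diets did not overlap but lay close (0.10 ± 0.06). Cdkn1a was at 76.5, 63.2 and 63.2 CPM on oxymetholone and 72.9, 49.1 and 56.0 CPM on placebo (0.17 ± 0.15), and Phlda3 at 63.1, 59.7 and 53.8 CPM and 60.1, 70.4 and 61.5 CPM (-0.14 ± 0.09). Xpc (0.48 ± 0.29), Aen (0.17 ± 0.13) and Sesn1 (0.08 ± 0.07) came next by p. Trp53 (0.01 ± 0.07) and Mdm2 (0.03 ± 0.06) were not called either.

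Whole bone marrow had 1 library per genotype, so its ratios have no replicate check, and their 95% intervals (exact binomial) cover counting error only. Of the 39 genes, 38 had at least 100 counts in a library. For 10 the interval lay above 1, where 23.9% of 11819 genes did, for 5 it lay below 1 (23.5%), and for 23 it included 1. The median ratio was 1.02 over the 38 genes and 1.0 over all genes.

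Among genes whose interval excluded 1, Zmat3 had the largest ratio, with 7.70 CPM in Fancd2-/- and 5.59 CPM in wild-type marrow, or 1.38 (1.22 to 1.55). It was followed by Ephx1 (14.4 and 11.0 CPM, ratio 1.32), Cdkn1a (52.0 and 42.4 CPM, 1.23), Fas (26.2 and 21.4 CPM, 1.22) and Phlda3 (24.1 and 20 CPM, 1.2). Of these only Zmat3 and Phlda3 were also called in KSL cells. Perp (1.11, interval 0.88 to 1.41), Gtse1 (0.971) and Ckap2 (0.969) had intervals that reached 1, and Eda2r had 12 counts in each library, too few for a ratio.

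Among those genes the lowest ratios were those of Sertad1, a regulator of cyclin-dependent kinase activity (55.4 CPM in Fancd2-/- and 65.8 CPM in wild-type marrow, 0.842), Sesn2, a stress-induced inhibitor of mTORC1 (16.8 and 19.3 CPM, 0.87), and Gadd45a (160 and 179 CPM, 0.891). Trp53 and Btg2 both had a ratio of 0.965, and Mdm2, at 115 and 109 CPM, one of 1.06 (1.03 to 1.09). The summed neutrophil markers were at 138062 CPM in Fancd2-/- and 129882 CPM in wild-type marrow, and the erythroid markers at 33090 and 34470 CPM, with 1 library each, and the part of these values in the ratios was not tested.

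**Figure D5:**
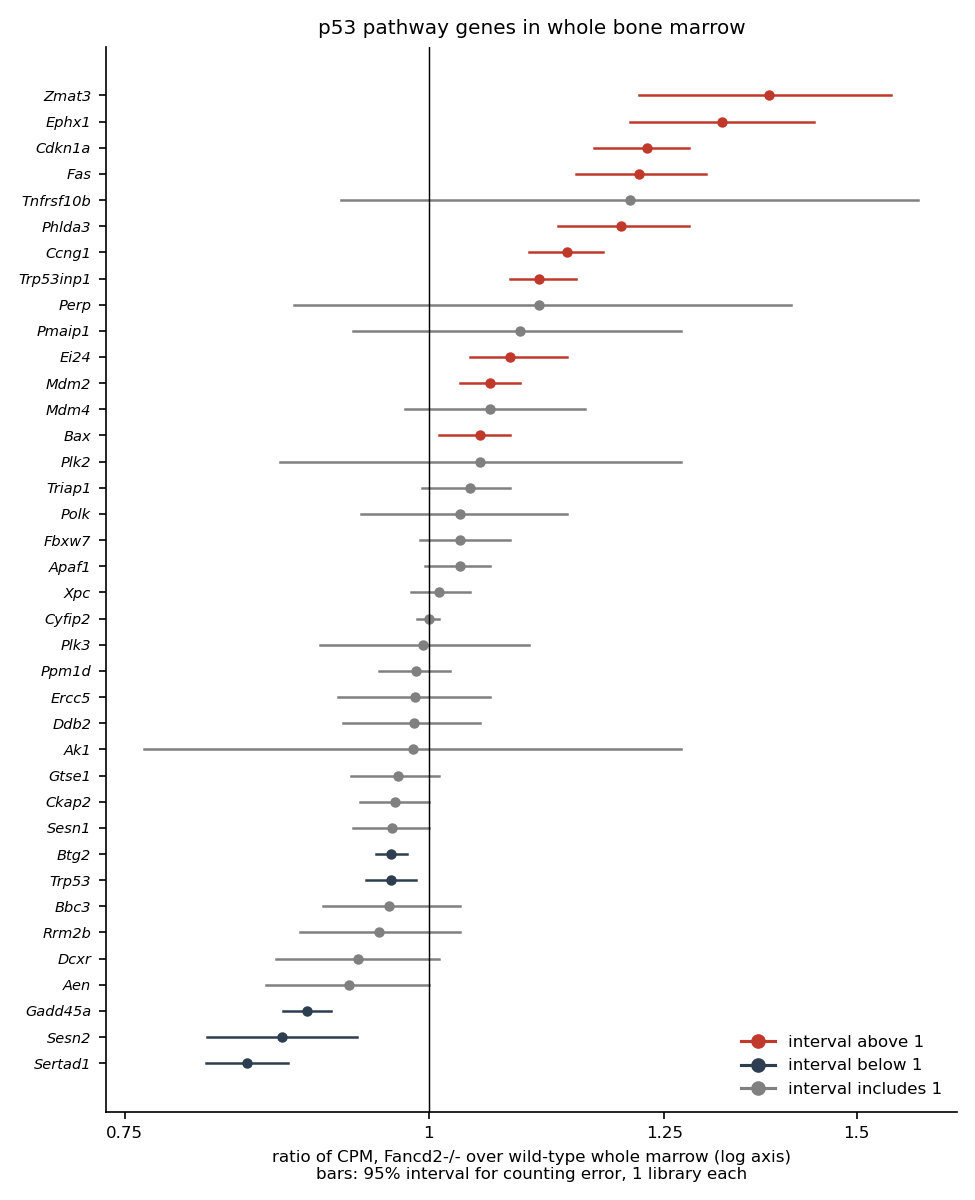
Ratio of CPM in Fancd2-/- over wild-type whole marrow (log x axis) for the 38 genes with at least 100 counts, with 95% intervals for counting error from 1 library per genotype. Zmat3 (1.38) is at the top and Sertad1 (0.842) at the bottom, and 23 intervals include 1.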

How the data were processed

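RNA-seq counts per RefSeq transcript were deposited by the authors for 20 libraries. Per the series' design text and the submitters' processing notes, 51-base reads were aligned to mm9 with Bowtie, and edgeR was used. Tool versions, strandedness and the treatment of multiply aligned reads are not stated there, so opposite-strand overlaps (Plk3, Ddb2, Cyfip2, Fbxw7) cannot be told apart. The authors also deposited a scaled matrix, rounded and summing to the same total in each library (treated as a score), which was used as an alternative only, on log2(value + 1).

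The transcript with the largest total was kept per symbol. Genes passing filterByExpr were tested with edgeR 4.0.16 (R 4.3.3): TMM, robust quasi-likelihood fit, Benjamini-Hochberg adjustment over all genes tested, call at 0.05. Log2 values are given ± SE. Genotype was tested on group means of 12 KSL libraries. Oxymetholone and the interaction were tested with pair as a block, the pairing coming from the shared cytometer setting; deviations of paired libraries correlated at 0.134, -0.061 and 0.214 (Fancd2-/-) and 0.114, 0.258 and 0.131 (wild-type). Erythroblast comparisons used group means of 6 libraries. Whole marrow ratios have exact binomial 95% intervals for genes with at least 100 counts. Alternatives were DESeq2 1.42.0, limma 3.58.1 (voom with a pair correlation of 0.256, and the scaled matrix), median-of-ratios scaling, no filter, summed transcripts, a length-trend offset, pair sums and leaving out each library. On simulated data, 71.5% of 200 genes changed 2-fold were called in the placebo genotype comparison and 83.5% in the averaged one. There were 11 and 16 false calls. The simulated libraries were drawn independently, with no pair correlation and no outlying library, so these shares may be too high for the real data.

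The members and lists were chosen with earlier results of these data known. All 39 members are accounted for. Named with values are Trp53, Mdm2, Cdkn1a, called members and up to 8 more by smallest p in each KSL comparison, up to 6 within erythroblasts, the 4 highest and 4 lowest against KSL, and up to 5 a direction in whole marrow. Of the other lists, up to 4 called genes, or the 2 of smallest p, are named.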

Additional observations from a re-analysis of the deposited data

How the results depend on the processing

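The number of the 39 genes called by genotype on placebo was 2 in the edgeR test, 6 with DESeq2, 1 with limma voom and a pair correlation, 0 with only the libraries of that diet, and 0 to 3 with 1 library left out. On oxymetholone it was 0, and 2 with DESeq2. Averaged over diets it was 6, 1 with the libraries of a pair summed, and 3 to 6 with 1 library left out. Without both libraries of Fancd2-/- pair 3, an alternative chosen after seeing the data, it was 9, and 6 with pair sums, where Perp (adjusted p = 0.0552) and Gtse1 (adjusted p = 0.0671) were not called by edgeR. Over all genes, the calls on placebo were 170 with edgeR, 815 with DESeq2 and 11 with that diet alone, and those on oxymetholone 17, 86 and 0. The averaged calls were 492 with edgeR, 1121 with DESeq2, 184 with limma voom and 52 with pair sums, and 1890 without Fancd2-/- pair 3. The share of higher calls on placebo also moved, with 67 higher and 103 lower in edgeR and 471 higher and 344 lower in DESeq2. None of the 6 averaged and 2 placebo calls among the 39 genes changed direction under the alternatives run. For the uncalled genes of the 39, 38 of 518 alternative estimates on placebo changed sign and 6 were called. On oxymetholone 29 of 546 changed sign and 2 were called, and averaged over diets 56 of 726 did and 6 were called. Direction was not followed for genes outside the 39. The cause of these shifts was not tested. With and without the replicate block, 0 of the 39 genes were called for oxymetholone in either genotype or for the interaction. Eda2r and Pmaip1 had few reads, which limits their precision.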

Other observations

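In wild-type erythroblasts against wild-type KSL cells on placebo, 11 of 20 tested damage kinases and other p53 regulators were higher and 5 lower (median log2 ratio 0.54). Hipk2, a kinase that phosphorylates p53, was at 466 ± 18.7 CPM in erythroblasts and 29.0 ± 2.95 CPM in KSL cells (SD, n = 3 each), and Usp7, the deubiquitinase that acts on MDM2 and p53, at 1976 ± 175 CPM in erythroblasts and 157 ± 8.03 CPM in KSL cells. Of 32 tested p53 targets outside the 39, 11 were higher and 17 lower (median -2.04). Steap3, a ferrireductase of erythroid iron uptake, was at 1276 ± 34.2 CPM in erythroblasts and 19.4 ± 0.625 CPM in KSL cells. These counts stand beside the 37.2% of all genes called higher and 53.7% called lower.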
